A study of Mus musculus with 6 samples.

Results

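The genes described here are 43 mitotic kinases, kinesins, spindle checkpoint genes and their partners, which together carry a cell from G2 through chromosome segregation and cytokinesis. They were chosen by name, as probe sets with exactly 1 gene symbol equal to a listed gene, and where a gene had more than 1, its brightest by the mean of the 6 arrays was taken. Of the 43 genes, 42 were measured in this way, out of 19938 genes on the array, and all 42 lay above the filter on dim genes that left 14953 genes for testing. Ccnb1 was not analysed here.

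Every array held RNA of BCR-ABL1 transformed pre-B cells, a mouse model of Philadelphia chromosome-positive acute lymphoblastic leukaemia, from C57BL/6 mice with both alleles of Inpp5d floxed (Inpp5d fl/fl). Inpp5d encodes the lipid phosphatase SHIP1, which removes the product of PI3 kinase. On 3 arrays the cells carried the vector PMIP-CRE-ERT2, a Cre recombinase fused to a tamoxifen-binding domain, and on 3 arrays they carried PMIP-ERT2, the binding domain without Cre. All 6 received 4-hydroxytamoxifen at 0.5 µM for 2 days and were taken as puromycin-resistant cells. The labels give no age and do not say whether replicate arrays stem from independent cultures; if they do not, the p-values reflect technical spread alone. No group had Cre without floxed alleles, and the controls received tamoxifen too. The design asks which transcripts depend on the Cre vector.

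Cells enter mitosis when CDK1, bound to cyclin A or B, is freed of inhibitory phosphates by the CDC25 phosphatases. Aurora and Polo-like kinases then drive centrosome separation and spindle assembly, kinesin motors move chromosomes and sort microtubules, and the spindle checkpoint holds back the anaphase-promoting complex (APC/C) until every kinetochore is attached. Most of these transcripts rise together in G2 under FOXM1 and the MuvB complexes, so their level in bulk RNA follows both the share of cells in G2 and mitosis and the RNA made per cell. These cannot be told apart in bulk samples.

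Values are log2 intensities, and all differences are log2 means of the arrays labelled CRE-ERT2 minus those labelled ERT2. The target, Inpp5d, had log2 values of 13.20, 13.21 and 13.17 in the arrays labelled ERT2 and 13.37, 13.34 and 13.34 in those labelled CRE-ERT2. Its difference of 0.16 ± 0.0415 (SE, n = 3 per group) missed the threshold of 0.05 in limma (adjusted p = 0.0545) and passed after loess between arrays (0.17, adjusted p = 0.0367). It ran upward, against the label, in both, so groups are named by their labels throughout. The sources used here do not place its 1 probe set inside or outside the floxed exons, and a probe set outside them checks nothing. Over all probe sets the arrays did not separate by label: r was 0.9945 to 0.9970 among those labelled ERT2, 0.9923 to 0.9950 among those labelled CRE-ERT2 and 0.9883 to 0.9967 between the labels. CRE-ERT2 replicates 1 and 2 each correlated more with ERT2 replicate 3 than with each other, and CRE-ERT2 replicate 3 more with ERT2 replicates 1 and 3 than with either. Of 14 pre-B cell markers listed, 13 were measured and all 13 lay above the filter, with a mean log2 level between 12.34 and 12.43 on every array. Rag2 (-0.50) was lower and Dntt (0.33) higher among them, passing in 2 and 3 of the 6 fits with an array left out. Of 10 myeloid markers, 5 were dim. The mean log2 level of the 10 was 7.62 to 7.68 in the arrays labelled ERT2 and 7.81 to 7.91 in those labelled CRE-ERT2, with Lyz2 (0.79), Cebpa (0.27) and Cebpe (0.21) higher by limma's test. Lyz2 passed in all 6 fits with an array left out, Cebpa in 2 and Cebpe in 1, and Cebpe did not pass after loess between arrays (adjusted p = 0.102). T and NK markers (9 measured, 6.98 to 7.07 against 7.09 to 7.23), erythroid and megakaryocyte markers (6 measured, 7.72 to 7.75 against 7.75 to 7.92) and stromal markers (10 measured, 8.09 to 8.16 against 8.20 to 8.37) had no gene called on the deposited values, and the stromal list had 1 after loess, Pecam1 (adjusted p = 0.0257). Dim genes as a whole read higher with the CRE-ERT2 label. In the dimmest 3 of 10 brightness bins the median difference of all genes was 0.11 to 0.12. After loess, the tested T and NK markers had a median difference of 0.022, and the erythroid and megakaryocyte ones 0.0065. That median was 0.13 for the myeloid and 0.11 for the stromal markers. The part of these markers in the results below was not tested.

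Of the 42 mitotic genes measured, 4 had lower levels with the CRE-ERT2 label at a limma adjusted p under 0.05, 0 were higher and 38 did not pass. The 4 were the kinesin genes Kif20b and Kif2c, the kinase gene Nek2 and Birc5, which encodes survivin. They make up 9.52% of the members, against 4.13% of all genes tested called lower and 3.5% called higher. All of the differences were small: the largest was 1.23-fold, the median over the 42 members was -0.075, and the median over all genes tested was 0.026. A difference below 0 was found in 35 of the 42 members, which is 83.3% against 43.4% of all genes tested and 58% of genes in the brightest 2 of 10 bins. Before adjustment, 10 members (23.8%) had p under 0.05 by limma, a smaller share than the 33.4% of all genes tested. The 3 arrays labelled CRE-ERT2 lay below all 3 labelled ERT2 in 16 members (38.1%, against 17.7% of all genes tested and 25.7% of those in the brightest 2 bins), above them in 1 member, Ccna2 (2.38%, against 20.7%), and the groups overlapped in 25.

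**Figure D1:**
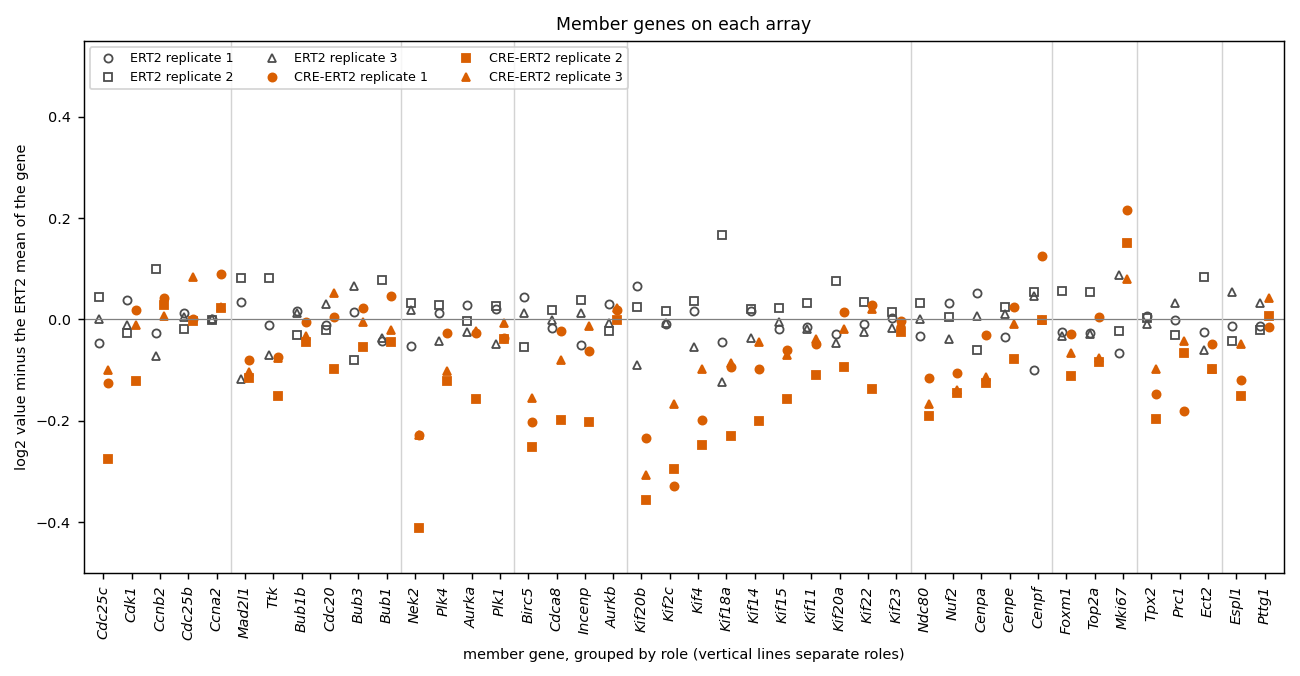
Log2 value of each of the 42 measured genes on each of the 6 arrays, minus the mean of the 3 arrays labelled ERT2 for that gene. Grey open symbols are arrays labelled ERT2, orange filled symbols arrays labelled CRE-ERT2, and the symbol's shape is the replicate number. In Kif20b, Nek2, Kif2c and Birc5 all orange symbols lie below all grey ones, and the orange square (CRE-ERT2 replicate 2) is the lowest of the 6 values in 29 genes.

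Kif20b encodes a kinesin of the central spindle that acts in cytokinesis. Its log2 values were 11.13, 11.08 and 10.97 in the arrays labelled ERT2 and 10.83, 10.70 and 10.75 in those labelled CRE-ERT2. The groups did not overlap, and CRE-ERT2 replicate 2 was the lowest of the 6 arrays. Kif20b fell by 0.30 ± 0.057 on the log2 scale (SE, n = 3 per group, 1.23-fold, limma adjusted p = 0.0258).

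Nek2 encodes a kinase that releases the linker between duplicated centrosomes. Its log2 values were 11.63, 11.72 and 11.70 in the arrays labelled ERT2 and 11.46, 11.27 and 11.46 in those labelled CRE-ERT2. Replicate 2 of CRE-ERT2 was the lowest and the groups did not overlap. Nek2 fell by 0.29 ± 0.061 (SE, n = 3 per group, 1.22-fold, limma adjusted p = 0.0340).

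Kif2c encodes MCAK, a kinesin that depolymerises microtubules and corrects wrong kinetochore attachments. Its log2 values were 11.53, 11.55 and 11.53 in the arrays labelled ERT2, which hardly differed, and 11.21, 11.24 and 11.37 in those labelled CRE-ERT2. Here replicate 1, not replicate 2, of CRE-ERT2 was the lowest. Kif2c fell by 0.26 ± 0.053 (SE, n = 3 per group, 1.20-fold, limma adjusted p = 0.0307).

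Birc5 encodes survivin, the subunit that brings the chromosomal passenger complex to the centromere. Its log2 values were 11.09, 10.99 and 11.05 in the arrays labelled ERT2 and 10.84, 10.79 and 10.89 in those labelled CRE-ERT2, again without overlap. Birc5 fell by 0.20 ± 0.049 (SE, n = 3 per group, 1.15-fold, limma adjusted p = 0.0461), just inside the threshold.

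All 4 calls were lost without ERT2 replicate 1 or 2 or CRE-ERT2 replicate 1 or 2, and all 4 held without CRE-ERT2 replicate 3. Without CRE-ERT2 replicate 3 the limma adjusted p was 0.0284 for Kif20b, 0.0250 for Nek2, 0.0149 for Kif2c and 0.0313 for Birc5, and Kif4 (0.0315) and Tpx2 (0.0451) passed as well, giving 6 calls. Without ERT2 replicate 3 only Kif20b passed (0.0397). No member passed without ERT2 replicate 1 (lowest of the 4: Nek2, 0.112), without ERT2 replicate 2 (Birc5, 0.0910), without CRE-ERT2 replicate 1 (Kif20b, 0.0658) or without CRE-ERT2 replicate 2 (Nek2, 0.0510); before adjustment, 8, 8, 10 and 8 members had p under 0.05 in these limma fits. Calls over all genes rose and fell in the same fits. Of 14953 genes tested, 1140 were called on all 6 arrays, 3042 without CRE-ERT2 replicate 3 and 347 without ERT2 replicate 3. Without ERT2 replicates 1 and 2 the counts were 116 and 194, and without CRE-ERT2 replicates 1 and 2 they were 136 and 525. The differences of the 4 genes moved little over the 6 fits. They ranged from -0.34 to -0.27 for Kif20b, from -0.32 to -0.23 for Nek2, from -0.31 to -0.23 for Kif2c and from -0.23 to -0.18 for Birc5.

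Promoter sequence is shown for the 4 genes called and, for comparison, for Cdk1 and Cdc20, which were not. Many genes of the G2 and mitosis programme are known to carry a cell cycle homology region (CHR), read by the MuvB complexes, and CCAAT boxes, bound by NF-Y. The RefSeq promoter table (GRCm38.p6) had windows for 35 of the 42 measured members, 38 windows in all since 3 genes have a pair of overlapping ones, each from 250 bases before to 50 bases after an annotated start. The 120 bases just before the start are printed 5′ to 3′ on the gene's strand, with matches to the CHR (TTTGAA or TTCGAA, either strand) and to CCAAT (either strand) in capitals. They lie at chr19:34922238-34922357 (plus strand) for Kif20b, chr1:191821353-191821472 (plus strand) for Nek2, chr4:117178773-117178892 (minus strand) for Kif2c, chr11:117849117-117849236 (plus strand) for Birc5, chr10:69352913-69353032 (minus strand) for Cdk1 and chr4:118437344-118437463 (minus strand) for Cdc20.
Kif20b: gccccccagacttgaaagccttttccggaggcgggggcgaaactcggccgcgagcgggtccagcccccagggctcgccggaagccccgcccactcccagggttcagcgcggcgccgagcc
Nek2: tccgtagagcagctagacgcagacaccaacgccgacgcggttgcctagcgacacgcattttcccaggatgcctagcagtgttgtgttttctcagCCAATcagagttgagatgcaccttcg
Kif2c: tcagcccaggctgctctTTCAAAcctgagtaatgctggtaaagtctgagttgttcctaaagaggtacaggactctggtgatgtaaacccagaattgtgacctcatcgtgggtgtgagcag
Birc5: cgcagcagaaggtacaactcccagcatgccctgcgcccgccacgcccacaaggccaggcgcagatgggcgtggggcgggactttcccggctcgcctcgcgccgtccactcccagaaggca
Cdk1: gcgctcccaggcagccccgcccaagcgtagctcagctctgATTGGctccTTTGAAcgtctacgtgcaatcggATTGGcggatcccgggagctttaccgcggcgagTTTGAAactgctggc
Cdc20: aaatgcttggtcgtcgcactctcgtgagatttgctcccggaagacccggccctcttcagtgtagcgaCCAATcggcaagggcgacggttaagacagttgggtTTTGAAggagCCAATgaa

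The Cdk1 stretch holds a pair of CHR matches, 71 and 15 bases before the start, each after a CCAAT match on the opposite strand. Cdc20 has a CHR match 18 bases before its start between CCAAT matches at 53 and 8 bases. Among the genes called, Nek2 has a CCAAT match 26 bases before its start and another 7 bases after it, with no CHR match, whereas Kif2c has a CHR match 103 bases before its start and no CCAAT match. Kif20b has its CHR matches 7 and 13 bases after the start, outside the stretch shown, and Birc5 has neither motif in its window. A match is a description of letters, not a bound site, and the absence of one says only that these letters are not in this window.

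Across the members, 30 of 38 windows (78.9%) held a CHR match, against 19.2% of all 32851 windows of the same length, and 26 (68.4%) held one starting within 60 bases of the start, against 5.9%. A CCAAT match was found in 28 windows (73.7%, against 37.4%), and 18 (47.4%, against 11.7%) held at least 2. Both motifs stood together in 26 windows (68.4%, against 7.52%). TTCGAA reads the same on both strands and was counted once. The 27 genes with a CHR match had a median log2 difference of -0.066 and the 8 without had -0.12. For CCAAT the medians were -0.037 (25 genes) and -0.13 (10 genes). These medians describe the list, and their difference was not tested.

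**Figure D2:**
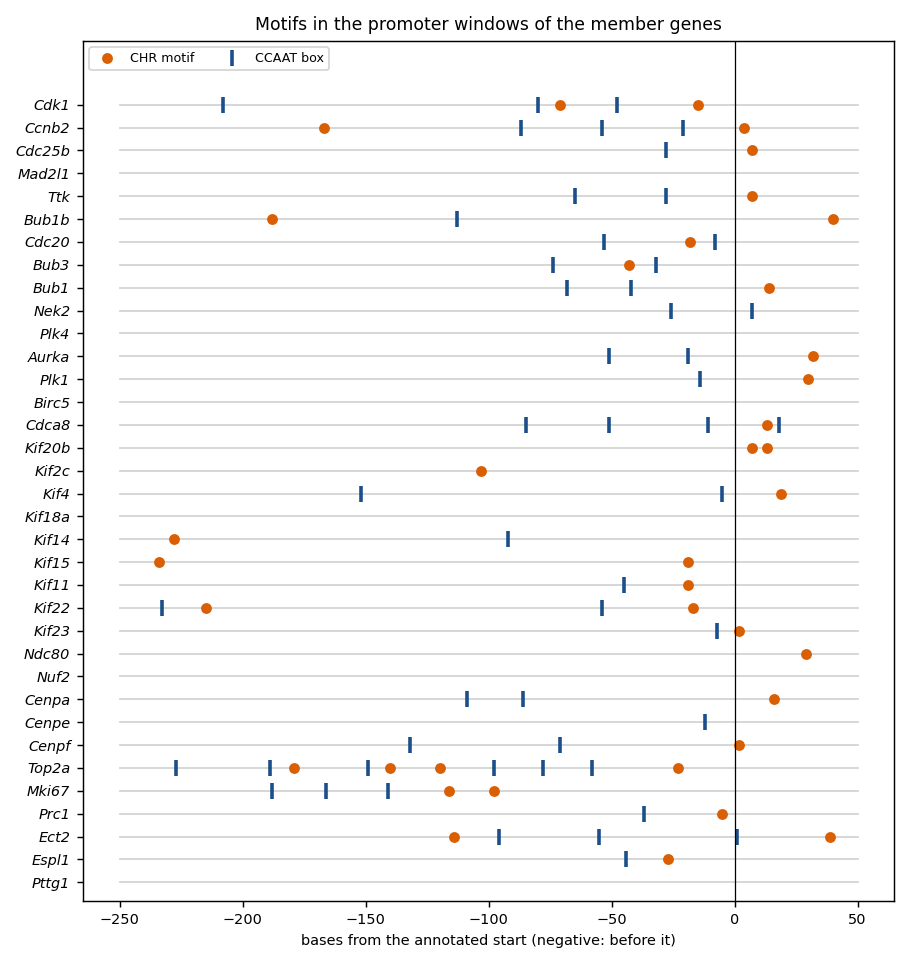
Positions of CHR matches (orange circles) and CCAAT matches (blue bars) in the promoter windows of the 35 members with an entry, in bases from the annotated start (vertical line), for the first listed window of each gene; genes follow the role order of the other plots. Most CHR matches fall within 60 bases of the start, often with a CCAAT match upstream, and Birc5 has neither.

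Cyclins, CDK1 and the CDC25 phosphatases, which form the switch into mitosis, gave no call among 5 measured genes, with a median difference of 0.026. Cdk1 had log2 values of 13.09, 13.02 and 13.04 in the arrays labelled ERT2 and 13.07, 12.93 and 13.04 in those labelled CRE-ERT2. The groups overlapped, and the difference was -0.037 with a 95% interval from -0.16 to 0.082. Ccna2, which encodes cyclin A2, read 13.55 on each array labelled ERT2 and 13.64, 13.57 and 13.57 on those labelled CRE-ERT2, a difference of 0.045 (adjusted p = 0.470 by limma). Ccnb2, for cyclin B2, differed by 0.026 and Cdc25b, an early CDK1 activator, by 0.027, and the sign of Ccna2, Ccnb2 and Cdc25b turned when arrays were centred on their medians. Cdc25c, the phosphatase gene that acts at mitotic entry, was the exception in this set. Its log2 values were 9.51, 9.60 and 9.56 in the arrays labelled ERT2 and 9.43, 9.28 and 9.45 in those labelled CRE-ERT2, so the groups did not overlap, but the difference of -0.17 ± 0.058 (SE) did not pass (limma adjusted p = 0.0960). It was the dimmest of the members and the only one in the fifth of 10 brightness bins.

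Among the other mitotic kinases, Nek2 alone passed. Plk4, the kinase gene of centriole duplication, had a difference of -0.084 (limma adjusted p = 0.239), Aurka, which matures centrosomes, -0.068 (0.364) and Plk1, the main Polo-like kinase, -0.027 (0.672). Aurka read 11.77, 11.74 and 11.72 in the arrays labelled ERT2 and 11.72, 11.58 and 11.72 in those labelled CRE-ERT2, where replicate 2 alone lay well below the ERT2 values. Plk1 read 12.99, 13.00 and 12.92 against 12.93, 12.93 and 12.96, with the groups overlapping.

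The spindle checkpoint genes and Cdc20, the APC/C activator they restrain, gave 0 calls among 6, with a median difference of -0.021. Bub1, a checkpoint kinase gene, read 12.58, 12.70 and 12.58 in the arrays labelled ERT2 and 12.67, 12.58 and 12.60 in those labelled CRE-ERT2, a difference of -0.0064 with a 95% interval from -0.13 to 0.11. Bub3 (-0.012), Cdc20 (-0.014) and Bub1b (-0.027), which encodes BUBR1, also lay less than their SE from 0, and Bub1, Bub3 and Cdc20 turned positive after loess. Mad2l1, for the inhibitor MAD2, and the kinase gene Ttk, for MPS1, each had a difference of -0.10, and neither passed (limma adjusted p = 0.249 and 0.217). ERT2 replicate 3 was the lowest of the 6 arrays for Mad2l1 (12.95, beside 13.11 and 13.15 in its group). Ttk had no overlap, at 10.86, 10.96 and 10.81 against 10.80, 10.73 and 10.80.

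The chromosomal passenger complex consists of AURKB and the 3 partners that place it. Of the 4 genes only Birc5 passed. Aurkb, which codes for the kinase itself, read 13.24, 13.19 and 13.21 in the arrays labelled ERT2 and 13.23, 13.21 and 13.24 in those labelled CRE-ERT2. Its difference was 0.014 with a 95% interval from -0.083 to 0.11. Cdca8, for borealin, had -0.10 (limma adjusted p = 0.219) and Incenp, for the scaffold, -0.093 (0.285). In both, CRE-ERT2 replicate 2 was lowest, at 11.28 for Cdca8 and 11.49 for Incenp, and no other array read below 11.40 and 11.63. Whether Birc5 differed from its partners was not tested.

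All 10 genes grouped as kinesins among the members had a difference below 0 (100%, against 43.4% of all genes tested). Their median was -0.11, and 2 of them passed. Kif18b, a kinesin gene outside the members, had a difference of 0.016 (limma adjusted p = 0.796). The 3 arrays labelled CRE-ERT2 lay below all 3 labelled ERT2 in 6 of the 10 (60%, against 17.7% of all genes tested). In bins 7 to 10 of brightness, where the 10 lie, 54.9% to 69.5% of all genes tested were below 0. In these bins 22.2% to 30.9% did not overlap in this direction. After loess 8 of the 10 stayed below 0, with Kif22 and Kif23 turning positive. Kif4, a chromosome-bound motor gene, read 10.91, 10.92 and 10.83 in the arrays labelled ERT2 and 10.69, 10.64 and 10.79 in those labelled CRE-ERT2. Its difference of -0.18 ± 0.054 (SE) did not pass (limma adjusted p = 0.0703). Kif18a, which limits chromosome oscillation, had -0.14 but also the widest spread among the controls (10.57, 10.78 and 10.49), and its groups overlapped. Kif14, a cytokinesis motor gene, had -0.11, and Kif15 (-0.096) and Kif11 (-0.066), whose motors push spindle poles apart, had no overlap between groups. Kif20a (-0.033), Kif22 (-0.029) and Kif23 (-0.011), which act in cytokinesis and, for Kif22, in chromosome alignment, lay less than their SE from 0. Kif20a and Kif20b, which encode related motors, thus stood at -0.033 and -0.30. The second probe set of Kif14 was dim (5.71 to 5.89) with a difference of 0.026.

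Centromere and kinetochore genes gave 0 calls among 5. The NDC80 complex holds microtubules at the kinetochore, and a pair of its subunits were measured. Ndc80 read 10.86, 10.92 and 10.89 in the arrays labelled ERT2 and 10.78, 10.70 and 10.72 in those labelled CRE-ERT2, and Nuf2 read 11.52, 11.49 and 11.45 against 11.38, 11.34 and 11.35. Neither gene had any overlap between the groups, with differences of -0.16 ± 0.045 and -0.13 ± 0.044 (SE), and neither passed (limma adjusted p = 0.0644 and 0.0880). Cenpa, for the centromeric histone variant, had -0.090, Cenpe, for a kinetochore motor, -0.021 and Cenpf, for a large outer kinetochore protein, 0.041, all with overlap.

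Spindle assembly and cytokinesis genes leaned the same way without a call. Tpx2, for the activator of Aurora A on the spindle, read 11.88, 11.87 and 11.86 in the arrays labelled ERT2 and 11.72, 11.67 and 11.77 in those labelled CRE-ERT2, a difference of -0.15 ± 0.045 (SE, limma adjusted p = 0.0738). Prc1, for a bundler of midzone microtubules, had -0.096 with CRE-ERT2 replicate 1 lowest (11.11), and Ect2, for the exchange factor that starts furrowing, had -0.081. Of the genes of sister chromatid separation, Espl1, for separase, read 10.90, 10.88 and 10.97 against 10.80, 10.77 and 10.87, a difference of -0.11 (limma adjusted p = 0.168). Pttg1, which encodes securin, the inhibitor of separase, had 0.011, with values from 10.36 to 10.42 on all 6 arrays.

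Mki67, which encodes the proliferation marker Ki-67 on mitotic chromosomes, had the largest difference above 0. Its log2 values were 13.36, 13.40 and 13.51 in the arrays labelled ERT2 and 13.64, 13.57 and 13.50 in those labelled CRE-ERT2, so the groups overlapped by the last value of each. The difference of 0.15 ± 0.058 (SE) did not pass (limma adjusted p = 0.120), and it passed with array weights (0.0355) and with trend and robust estimation (0.0373). Top2a, for topoisomerase II alpha, read 12.99, 13.07 and 12.98 against 13.02, 12.93 and 12.94, a difference of -0.052, and Foxm1, for the transcription factor that drives many of these genes, had -0.069 (adjusted p = 0.325 by limma). A second Top2a probe set was dim and scattered (5.19 to 6.47), and 2 probe sets that carry Top2a beside another gene were not used.

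**Figure D3:**
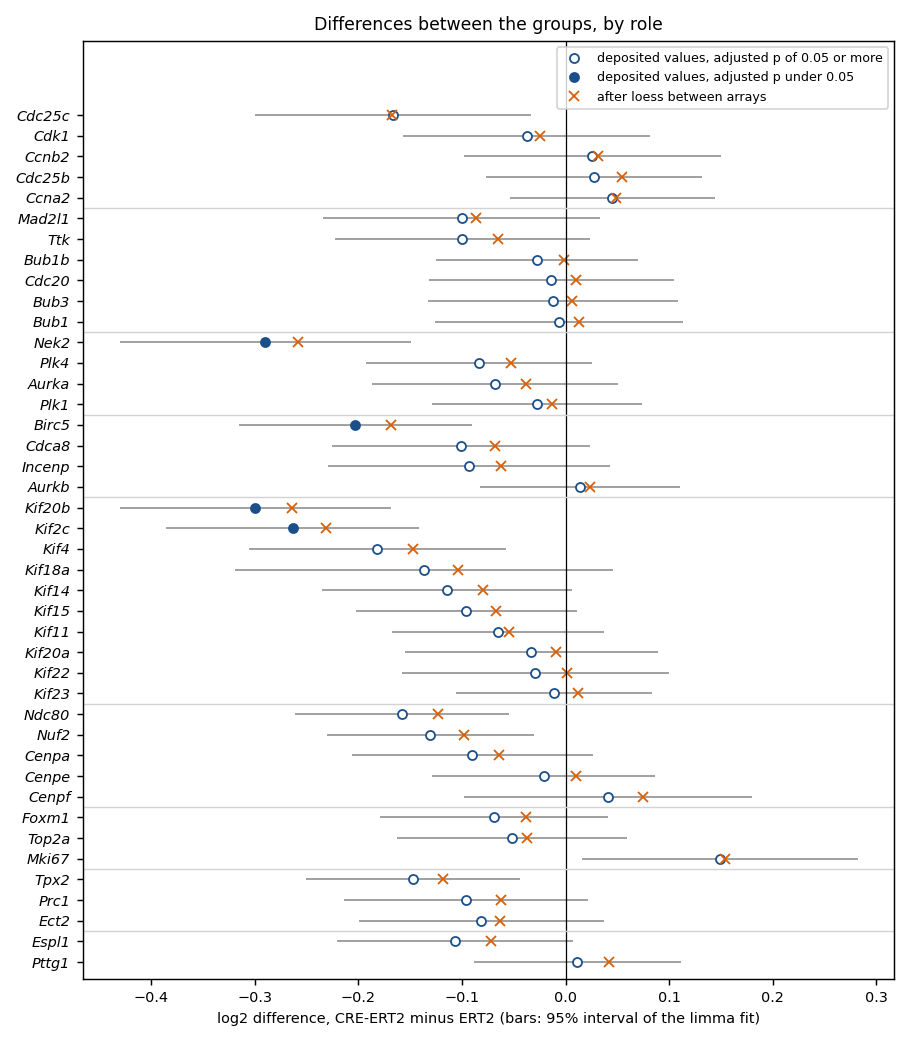
Log2 difference (arrays labelled CRE-ERT2 minus ERT2) of each measured gene, ordered by role, with the 95% interval of the limma fit on the deposited values (circles, filled where the adjusted p is under 0.05) and the difference after loess between arrays (crosses). Kif20b, Nek2, Kif2c and Birc5 are filled, from -0.30 to -0.20, and loess moves most genes to the right by a few hundredths.

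The groups differed in a way tied to brightness, and the members are bright. With the genes tested sorted into 10 bins by mean log2 value, the median difference of a bin was 0.11 to 0.12 in the dimmest 3 bins, -0.061 in bin 7, -0.044 in bin 8, -0.030 in bin 9 and -0.0090 in bin 10. Of the 42 members, 9 lay in bin 8, 13 in bin 9 and 17 in bin 10, where 7.22%, 5.48% and 2.21% of all genes were called lower. Measured against the median of its own bin, a member's difference was below 0 in 32 of 42 (76.2%, against 50% of all genes by construction), with a median of -0.053. Kif20b then stood at -0.26, Nek2 at -0.26, Kif2c at -0.23 and Birc5 at -0.16.

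Loess between arrays, which removes such a trend from the values before the test, gave 3 members lower and 0 higher (7.14%, against 4.69% of all genes called lower and 3.14% called higher). Kif20b (-0.26, limma adjusted p = 0.0199), Nek2 (-0.26, 0.0248) and Kif2c (-0.23, 0.0291) kept their calls. Birc5 did not (-0.17, 0.0525). The median over the members was -0.053, with 29 of 42 below 0 (69%, against 50.2% of all genes). Centring arrays on their medians moved the median of all genes from 0.026 to -0.077 and the split of calls among them from 617 lower and 523 higher to 2797 lower and 223 higher. By that scaling 13 of the 42 members were called lower and 0 higher, beside the 2797 and 223 of all 14953 genes tested. Below 0 were 41 of 42 members, against 70.3% of all genes.

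**Figure D4:**
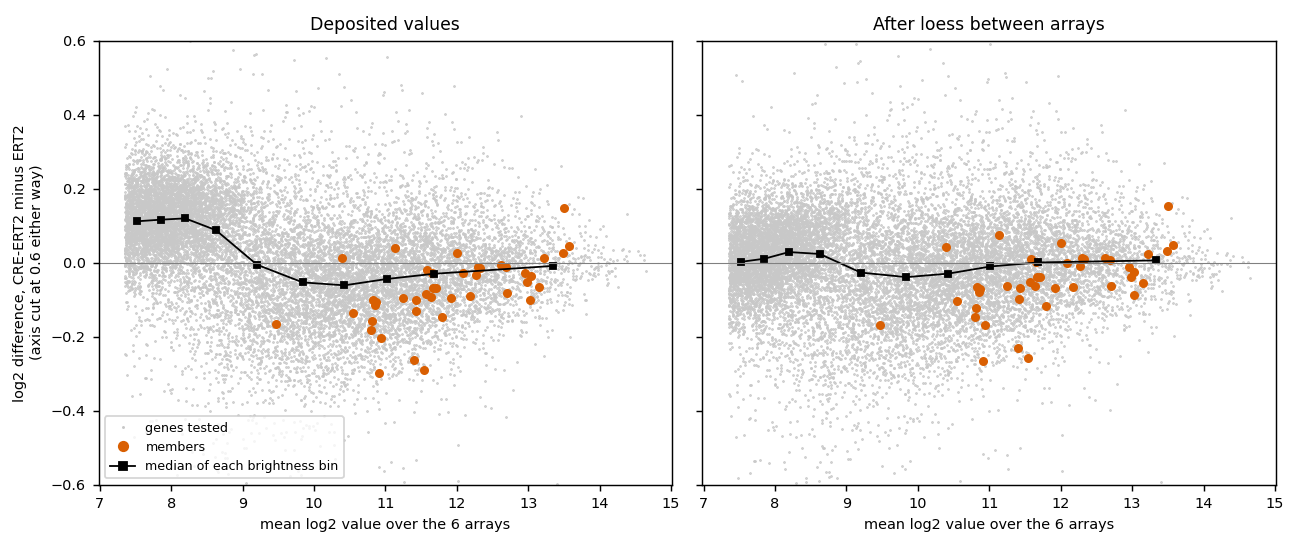
Log2 difference (arrays labelled CRE-ERT2 minus ERT2) against the mean log2 value over the 6 arrays for all genes tested (grey) and the 42 members (orange), with the median of each of 10 brightness bins (black squares, drawn at the middle of the bin's range), for the deposited values and after loess between arrays. The black line runs from above 0 among dim genes to below 0 from the fifth bin on in the deposited values, and most members lie under it in both panels.

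The members moved together from array to array, also within a group. Taking each gene relative to its mean over the 6 arrays, the median member deviation was 0.030, 0.069 and 0.021 in ERT2 replicates 1, 2 and 3, and -0.010, -0.080 and -0.012 in CRE-ERT2 replicates 1, 2 and 3. CRE-ERT2 replicate 2 thus lay lower than the other arrays of its group, and ERT2 replicate 2 higher. For all genes in the brightest 2 bins the same medians were 0.011, 0.017 and -0.00072 for ERT2 and 0.0025, -0.027 and 0.0016 for CRE-ERT2. CRE-ERT2 replicate 2 held the lowest of the 6 values in 29 of 42 members (69%), against 30.1% of all genes and 31.4% of those in the brightest 2 bins. ERT2 replicate 2 held the highest value in 23 members, but the share over all genes was not computed for this count. Without CRE-ERT2 replicate 2 the median member difference was -0.045 with 29 of 42 below 0, and without ERT2 replicate 2 it was -0.053 with 33 below 0. The replicate SD of the members had a median of 0.051 in the arrays labelled CRE-ERT2 and 0.040 in those labelled ERT2, beside a median size of 0.082 for their differences. For all genes tested these medians were larger, at 0.073, 0.055 and 0.10.

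**Figure D5:**
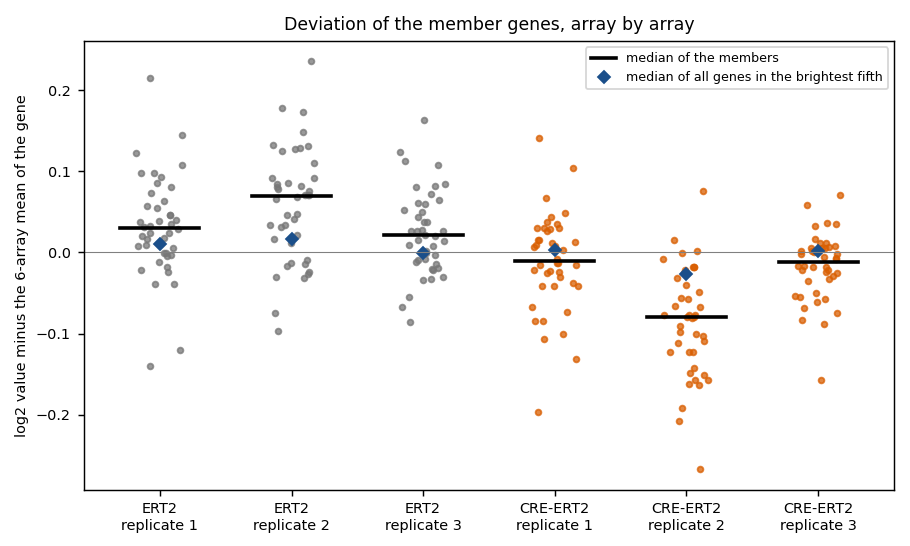
Deviation of each of the 42 members from its mean over the 6 arrays, by array (grey, labelled ERT2; orange, labelled CRE-ERT2; points are spread sideways for sight only). Black bars are the members' medians, from 0.069 in ERT2 replicate 2 to -0.080 in CRE-ERT2 replicate 2, and blue diamonds are the medians of all genes in the brightest 2 of 10 bins, which vary less.

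Other genes of mitosis, from a list of 102 further names of which 90 were tested, gave 8 calls lower and 0 higher (8.89% lower, against 4.13% of all genes tested), with a median of -0.089. By their mean levels the 8 lie in bins 5 to 9 of brightness, where 4.55% to 8.56% of all genes were called lower. Of the 90 tested, 84.4% were below 0, against 43.4% of all genes and 58% of those in the brightest 2 bins. Measured against the median of their own bin, 73.3% were below 0, against 50% of all genes by construction. Like the members, this list was chosen with earlier results of these data known, so it is no independent check of them. The 8 genes called include the kinetochore and centromere genes Cenph (-0.48), Mis12 (-0.28), Cenpl (-0.24) and Mis18a (-0.23). The others were the cytokinesis gene Cep55 (-0.20), Depdc1b (-0.28), Cdca3 (-0.22) and Pimreg (-0.20). Cenph read 10.14, 10.07 and 9.96 in the arrays labelled ERT2 and 9.72, 9.31 and 9.72 in those labelled CRE-ERT2, with CRE-ERT2 replicate 2 lowest again. After loess 10 genes of this list were lower, without Mis18a (limma adjusted p = 0.0552), and 0 higher, and its median was -0.059. No gene of the list passed without CRE-ERT2 replicate 1 or any single ERT2 array (limma, 26 to 33 genes with p under 0.05 before adjustment). Without CRE-ERT2 replicate 2, 1 passed, and without CRE-ERT2 replicate 3, 20 passed. That last fit called 3042 of all 14953 genes.

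Of 17 genes of the APC/C and its partners, 2 were lower (11.8%, against 4.13% of all genes tested), 0 higher and 15 did not pass. Ube2c and Ube2s, among the 17, also belong to the list of other mitosis genes. Anapc13 read 10.75, 10.66 and 10.84 against 10.21, 10.37 and 10.52 (-0.38 ± 0.083, SE, limma adjusted p = 0.0352), and Anapc15 11.60, 11.71 and 11.52 against 11.33, 11.23 and 11.42 (-0.29 ± 0.068, 0.0432). Each encodes a small subunit, and each passed in 1 of the 6 fits with an array left out, that without CRE-ERT2 replicate 3. Of 27 tested E2F, RB and DREAM regulators, 2 were lower (7.41%, against 4.13% of all genes tested) and 1 higher (3.7%, against 3.5%), and each of the 3 passed in the fit without CRE-ERT2 replicate 3 and in none of the other 5. Cdk2, the S phase kinase gene, read 11.60 on all arrays labelled ERT2 and 11.40, 11.37 and 11.44 on those labelled CRE-ERT2 (-0.20 ± 0.043, limma adjusted p = 0.0347), and E2f5, for a repressor E2F, had -0.21 (0.0485) and did not pass after loess (0.0559). Lin52, a subunit of the MuvB complex, read 10.61, 10.68 and 10.77 in the arrays labelled ERT2 and 11.11, 11.04 and 10.87 in those labelled CRE-ERT2, higher by 0.32 ± 0.071 (limma adjusted p = 0.0375).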

How the data were processed

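The data are 6 mouse Affymetrix arrays, 3 labelled CRE-ERT2 and 3 labelled ERT2, with group and replicate number from the sample titles. The deposited values are log2 intensities, 1 per probe set and array. The submitters' processing notes name RMA and Partek 6.5, with no role or settings for either, and no genome build was found in the sources used here. Probe-level files were not used here. Of 35556 probe sets, 21789 carried 1 gene symbol in the platform's annotation table, 1621 several and 12146 none. A gene entered the test if its mean reached the 25th percentile (log2 7.35).

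The groups were compared over 14953 genes by lmFit and eBayes of limma 3.58.1 (R 4.3.3), two-sided, with Benjamini-Hochberg adjustment over all genes and a threshold of 0.05. The named genes are all measured members, Inpp5d and up to 8 called genes of each further list. A few further genes are named where they bear on a count. The members and lists were chosen with earlier results of these data known. Alternatives were cyclic loess, quantile normalization, median centring, other filters, averaging a gene's probe sets, other variance models, a replicate block, each array left out and a threshold of 0.01. The procedure was tested on simulated data with independent noise for each gene. The simulation held no group difference tied to brightness and no shift shared by the genes of an array. It therefore does not cover these features of the data. The precision is limited by the 3 arrays in each group, and intensities have no read depth. Tables were made with Python 3.11.15 and pandas 2.3.3.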

Additional observations from a re-analysis of the deposited data

How the results depend on the processing

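The 4 calls among the members became 13 after median centring, 1 without a filter on dim genes and 7 with the filter at the 50th percentile. They became 9 with trend and robust estimation (8 lower and 1 higher) and 8 with array weights (7 lower and 1 higher). At a limma threshold of 0.01 there were 0 (10 with p under 0.05 before adjustment), and 0 to 6 with an array left out. The median member difference of -0.075 went to -0.18 after centring. It was -0.053 after loess, -0.052 with array weights and -0.089 to -0.045 with an array left out. The other filters, trend and robust estimation and the replicate block cannot move it. In the order of the member calls, all genes called went from 1140 of 14953 to 3020, 437 of 19938 without a filter and 1563 of 9969 with the stricter filter. They then came to 2147 with trend and robust estimation, 3993 with array weights and 143 at 0.01, and to 116 to 3042 with an array left out. Further mitosis genes went from 8 to 40, 0, 19, 25, 28 and 0, with 0 to 20 when an array was left out. APC/C genes went from 2 to 8, 0, 4, 6, 5 and 0, to 1 after quantile normalization, and 0 to 5 with an array left out. E2F, RB and DREAM regulators went from 3 to 7 after centring, 0 without a filter and 0 at 0.01, and 0 to 3 with an array left out. The filters change how many genes the adjustment covers, and fits with an array left out have fewer degrees of freedom. The cause of the changes in these counts was not tested.

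The labels do not say whether same-numbered arrays of the groups were paired. The correlation of their deviations from the group means was 0.069, -0.17 and -0.40 for replicates 1, 2 and 3. Not every array correlated best with its own number. Deviations from a mean of 3 arrays are tied to each other, so these values cannot settle whether the arrays were paired. With the replicate block, limma called 147 of all genes, and 0 members (9 with p under 0.05 before adjustment; cyclic loess without the block called 3), 0 further mitosis genes, 0 APC/C genes and 0 E2F, RB and DREAM regulators.

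Over 15 alternatives, 28 of 42 members kept 1 sign and 28 were called in none. The other filters, trend and robust estimation and the replicate block leave every difference unchanged, so they could not turn a sign. Averaging probe sets could do so only in Kif14 and Top2a. None of the 14 that changed sign was called on the deposited values. Median centring turned Ccna2 (-0.057), Ccnb2 (-0.077), Cdc25b (-0.075), Aurkb (-0.089), Cenpf (-0.062) and Pttg1 (-0.091). Cyclic loess turned Cdc20 (0.0097), Bub1 (0.013), Bub3 (0.0064), Kif22 (0.0016), Kif23 (0.013) and Cenpe (0.010), and quantile normalization Bub1 (0.0067) and Bub3 (0.0059). Array weights turned Cdc20 (0.0035), Bub1 (0.036), Kif20a (0.0038), Kif22 (0.0045) and Cenpe (0.015). With an array left out, values ranged from -0.066 to 0.0046 for Cdk1, -0.010 to 0.075 for Ccnb2, -0.046 to 0.028 for Cdc20, -0.0018 to 0.043 for Cdc25b, -0.032 to 0.033 for Bub1, -0.052 to 0.021 for Bub3, -0.057 to 0.0050 for Kif20a, -0.058 to 0.025 for Kif22, -0.044 to 0.0074 for Cenpe, -0.0094 to 0.068 for Cenpf and -0.0042 to 0.028 for Pttg1.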
